A study of Mus musculus with 6 samples.

Results

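Imprinted genes are read mainly from 1 parental copy, and 10 of them were followed here across 6 messenger RNA libraries: Peg10, Sgce, Igf2, Igf2r, Dlk1, Mest, Peg3, Grb10, Cdkn1c and Phlda2. They were taken by symbol from the 20325 genes listed, and all 10 were found. These genes and the lists used below were chosen with earlier results of these data known. Counts of calls among them are therefore descriptions, and the shares over all genes are given as background. The libraries came from pre2-2 and pre3, a pair of mouse pre-iPSC lines. Pre-iPSCs are cells that began but did not complete reprogramming to pluripotency. Cells of each line received no siRNA, a control siRNA or an siRNA to Tet1, which gave 1 library for each of the 6 combinations and 2 libraries per treatment. The labels give embryonic fibroblasts of OG2 transgenic mice of mixed 129SVJ, C57B6 and CBA background at passage 10 as the source, and all 6 cultures, controls included, received vitamin C (50 µg/ml) in embryonic stem cell medium with LIF. The descriptions disagree on timing. By the series text, vitamin C followed transfection after 16 h and RNA was taken 32 h later, whereas the sample descriptions state 48 h after transfection and 36 h of vitamin C. One label field reads Tet where the titles read Tet1. Whether the cultures of a line were grown separately is not given in the sources used here. With 1 library per combination, there are no replicates of a line and treatment. The p-values therefore measure the spread left after line and treatment are fitted, estimated with information from all genes. For a treatment, this spread is how far its difference varies between the 2 lines, and part of it may be technical.

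Imprinting is set in the germ line by DNA methylation at control regions, and maintained after fertilization by factors that protect this methylation from erasure. TET1 is an enzyme that oxidizes 5-methylcytosine, a step towards its removal, and vitamin C is a cofactor for enzymes of this family. Many imprinted genes act on growth: paternally expressed genes such as Igf2 tend to promote it and maternally expressed genes such as Igf2r, Cdkn1c and Grb10 tend to restrain it. By this textbook assignment, Peg10, Sgce, Igf2, Dlk1, Mest and Peg3 are paternally expressed, and Igf2r, Grb10, Cdkn1c and Phlda2 are maternally expressed in most tissues. The values below are totals over both copies. The parental origin of the RNA was not analysed here.

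Peg10 derives from a retrotransposon of the gag-pol type and is needed for the placenta. Its first reading frame passes into the second by a ribosomal shift of the -1 kind at a slippery heptamer. The heptamer was located in transcript Peg10-202 of the GENCODE M21 annotation (GRCm38, chr6:4755282-4755348, plus strand, exonic and coding), where it occurs once and starts at base 1107 of 1128 coding bases, on the third base of a codon. It is shown in capitals because it identifies the gene that varied most among the 10.
Peg10 coding sequence around the frameshift heptamer: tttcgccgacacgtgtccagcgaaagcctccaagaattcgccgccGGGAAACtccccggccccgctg

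For the other members, windows of 250 bases before RefSeq start sites (GRCm38.p6) were examined. A window was found for 7 of the 10, with more than 1 start for some. Windows are shown for Igf2 and Dlk1, which were high and low in the same libraries as Peg10, for Igf2r, the receptor that is read against Igf2, and for Mest, which was called between the lines and in no treatment comparison. Capitals mark CG, the dinucleotide that carries most DNA methylation in mammals.
Igf2 (chr7:142657497-142657746, minus strand, upstream of exon sequence): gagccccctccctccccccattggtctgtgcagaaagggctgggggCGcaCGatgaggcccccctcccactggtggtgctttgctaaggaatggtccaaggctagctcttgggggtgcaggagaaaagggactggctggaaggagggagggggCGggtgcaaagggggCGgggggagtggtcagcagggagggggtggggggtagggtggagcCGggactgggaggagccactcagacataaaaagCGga
Dlk1 (chr12:109452573-109452822, plus strand, upstream of exon sequence): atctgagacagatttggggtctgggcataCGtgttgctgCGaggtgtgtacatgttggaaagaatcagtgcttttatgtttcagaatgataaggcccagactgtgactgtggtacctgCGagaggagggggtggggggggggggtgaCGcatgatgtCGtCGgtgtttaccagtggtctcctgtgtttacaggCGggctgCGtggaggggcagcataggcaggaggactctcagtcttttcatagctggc
Igf2r (chr17:12769707-12769956, minus strand, upstream of exon sequence): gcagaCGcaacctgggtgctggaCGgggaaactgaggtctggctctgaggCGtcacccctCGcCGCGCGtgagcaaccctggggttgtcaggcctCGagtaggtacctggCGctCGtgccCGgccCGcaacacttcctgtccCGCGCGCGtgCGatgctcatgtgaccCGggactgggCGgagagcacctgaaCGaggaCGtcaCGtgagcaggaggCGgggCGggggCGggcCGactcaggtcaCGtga
Mest (chr6:30737800-30738049, plus strand, upstream of exon sequence): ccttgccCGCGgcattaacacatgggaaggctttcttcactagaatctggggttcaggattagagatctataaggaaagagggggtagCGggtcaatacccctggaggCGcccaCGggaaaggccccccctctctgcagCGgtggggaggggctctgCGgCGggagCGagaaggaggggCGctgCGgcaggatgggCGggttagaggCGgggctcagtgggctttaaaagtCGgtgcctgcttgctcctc

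These windows held 6 CG for Igf2, 8 for Dlk1, 27 for Igf2r and 14 for Mest, beside a median of 6 over 32851 windows of the same length. The Igf2r window held more CG than 91.4% of windows, while the Igf2 window printed above was near the middle. Igf2 had 4 windows that differed widely, with 6, 22, 10 and 1 CG, or more than 49.6%, 85.2%, 62.2% and 7.9% of windows, and a further Mest window held 7. The hexamer TGCCGC, which the imprint protector ZFP57 binds when methylated, was searched on both strands and found in 8.7% of all windows. Among the windows printed above it was present in that of Mest, with 2 matches. A match is a description of the letters and not a bound site.

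Library totals were 1868640 to 2582803 expected counts, and 3 counts correspond to 1.17 to 1.6 CPM. CPM values are counts relative to the library total after TMM scaling and serve to compare libraries for 1 gene. TPM values, which account for transcript length, serve to compare genes. Tet1, the target, stood at 250, 246 and 154 CPM in untransfected, control siRNA and Tet1 siRNA cells of pre2-2, and at 205, 251 and 159 CPM in pre3. With Tet1 siRNA against control siRNA it had a log2 difference of -0.67 (SE 0.13, edgeR quasi-likelihood test with Benjamini-Hochberg adjustment, adjusted p = 0.0043). This call ended with DESeq2 (-0.67, adjusted p = 0.103) and without the pre2-2 Tet1 siRNA (-0.57) or pre3 control siRNA library (-0.60). Of 14 pluripotency markers, 7 to 8 per library reached 10 CPM. The sum of the 14 was 2320 to 2890 CPM in pre2-2 and 7280 to 8370 CPM in pre3. Most of this gap came from Pou5f1 alone, at 1040 to 1210 CPM in pre2-2 and 5790 to 6620 CPM in pre3. Dppa3 had no count in any library, and Nanog ranged from 0 to 3.54 CPM. Of 15 fibroblast markers, 8 to 13 reached 10 CPM. In bulk RNA, fewer cells of a type and less RNA per cell cannot be told apart.

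**Figure D1:**
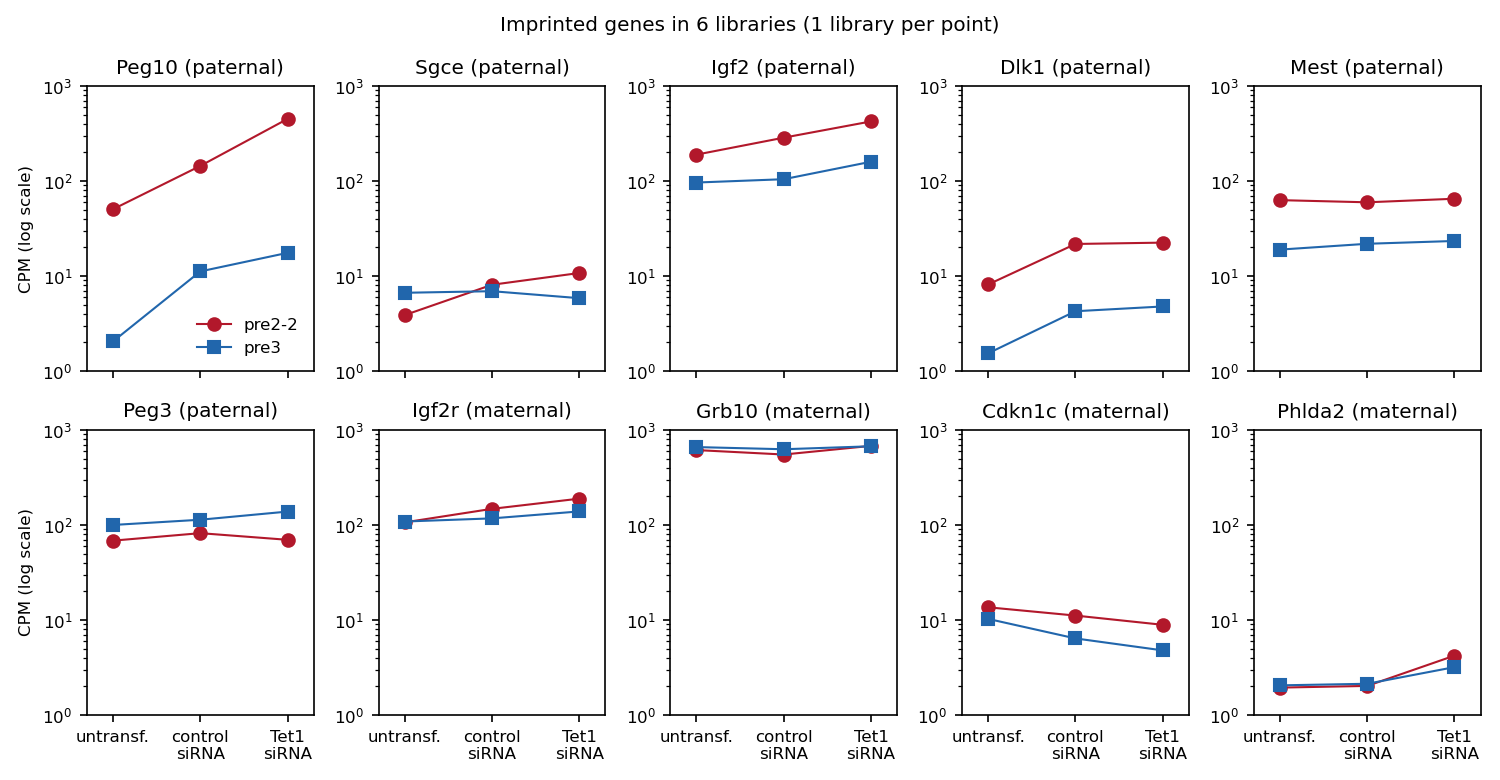
CPM on a log axis for the 10 imprinted genes in untransfected, control siRNA and Tet1 siRNA cells, with 1 library per point and a line joining the libraries of pre2-2 (circles) and of pre3 (squares). Peg10 spans 2.05 to 451 CPM, whereas Grb10 stays between 551 and 680 CPM.

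Grb10, an adaptor that restrains signalling by the insulin and IGF receptors, was the most abundant member, with a median of 249 TPM over the 6 libraries. It was followed by Igf2 at 94.1, Mest at 33.8, Igf2r at 28.8, Peg3 at 27.4 and Peg10 at 10.3 TPM. The lowest medians were those of Cdkn1c at 9.98, Sgce at 7.85, Phlda2 at 5.83 and Dlk1 at 3.09 TPM. The ranges of each pair of neighbours in this order overlapped over the libraries. The highest library exceeded the lowest by 220-fold for Peg10 and 14.6-fold for Dlk1, by 4.4-fold for Igf2 and by 1.23-fold for Grb10, in CPM. Summed over the 6 paternally expressed genes, TPM was 198, 302 and 483 in untransfected, control siRNA and Tet1 siRNA cells of pre2-2 and 101, 121 and 160 in pre3. The 4 maternally expressed genes summed to 283 to 352 TPM in all libraries, most of it from Grb10. Of the 10 genes, 9 passed the filter on low counts and were tested. Phlda2, whose product limits placental growth, did not pass, with 4 to 9 counts per library (1.94 to 4.22 CPM).

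Of the 6 paternally expressed genes, Peg10, Igf2, Dlk1 and Peg3 had higher values in both lines in each transfected library than in the untransfected library of the same line. Peg10 stood at 50.5 CPM in untransfected, 144 CPM in control siRNA and 451 CPM in Tet1 siRNA cells of pre2-2. In pre3 it stood at 2.05, 11.2 and 17.6 CPM, from 4, 21 and 33 counts. Both lines had the same order, and no pre3 library reached the lowest of pre2-2. Igf2, which encodes the growth factor IGF2, stood at 190, 286 and 424 CPM in pre2-2 and at 96.4, 104 and 160 CPM in pre3. Its Tet1 siRNA library was the highest of each line, and the treatments overlapped over both lines.

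Between Tet1 siRNA and control siRNA, 2 of the 9 genes tested were called higher and none lower at an adjusted p under 0.05, beside 1.58% of all 11048 genes called, 1.15% higher and 0.434% lower. Peg10 was 1.49 higher on the log2 scale, or 2.81-fold (SE 0.18, edgeR adjusted p = 1.63e-05). Within lines, the ratio of Peg10 CPM was 3.12 in pre2-2 (95% counting interval 2.73 to 3.58) and 1.57 in pre3 (0.881 to 2.85), so that the pre3 libraries alone did not separate at this depth. The Peg10 call ended without the pre2-2 control siRNA library, at 0.65 (adjusted p = 0.879), and without the pre2-2 Tet1 siRNA library, at 0.84 (adjusted p = 0.911). Igf2 was 0.58 higher, or 1.5-fold (SE 0.13, edgeR adjusted p = 0.0178), with within-line ratios of 1.48 in pre2-2 (1.33 to 1.65) and 1.53 in pre3 (1.27 to 1.84). Both intervals lay above 1. The Igf2 call ended with DESeq2 (0.58, adjusted p = 0.407) and without the control siRNA library of pre2-2 (0.72) or pre3 (0.46) or the pre2-2 Tet1 siRNA library (0.48). These intervals describe counting error alone, as reads were counted without molecular identifiers.

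The other 7 genes tested were not called in this comparison. Igf2r, the receptor that carries IGF2 to the lysosome for degradation, had a log2 difference of 0.31 (adjusted p = 0.414, 95% interval 0.02 to 0.59). Grb10 stood at 0.20 (adjusted p = 0.469, interval 0 to 0.41). Sgce, a sarcoglycan of the muscle and nerve cell membrane, stood at 0.15 (interval -0.79 to 1.1), and Mest, an enzyme of the alpha/beta hydrolase fold, at 0.12 (interval -0.29 to 0.52). Dlk1, a transmembrane protein related to Notch ligands, stood at 0.07 (interval -0.65 to 0.8) and the zinc finger gene Peg3 at 0.05 (interval -0.26 to 0.37). Cdkn1c, which encodes the cell cycle inhibitor p57, stood at -0.35 (interval -1.21 to 0.51). These intervals are wide for Sgce, Dlk1 and Cdkn1c, which had 3 to 48 counts per library. The median over the 9 genes was 0.15, beside 0 over all genes tested.

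Control siRNA was compared with no transfection as a background for the siRNA itself. Peg10 was called higher, by 1.62 on the log2 scale or 3.07-fold (SE 0.21, edgeR adjusted p = 3.06e-05), and was the single call among the 9 genes, beside 1.48% of all genes called, 1.38% higher and 0.0996% lower. Its within-line ratios were 2.86 in pre2-2 (2.31 to 3.54) and 5.46 in pre3 (1.84 to 21.9), and both intervals lay above 1. Without the pre2-2 untransfected library the difference was 1.82 with no call (adjusted p = 0.175). Without the pre2-2 control siRNA library it was 2.48 and called (adjusted p = 0.000376). For Peg10 the log2 difference of control siRNA from no transfection, 1.62, thus stood beside 1.49 for Tet1 siRNA against control siRNA. Both use the control siRNA libraries, and the difference between them was not tested.

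Dlk1 stood at 8.16, 21.8 and 22.5 CPM in untransfected, control siRNA and Tet1 siRNA cells of pre2-2 and at 1.54, 4.26 and 4.79 CPM in pre3, the latter from 3, 8 and 9 counts. The 2 transfected libraries of each line were close to each other and above the untransfected one. The difference of control siRNA from untransfected cells was 1.41 (SE 0.40, edgeR adjusted p = 0.0942), short of the threshold. It was called with limma-voom (adjusted p = 0.0368), with no filter on low counts (0.0345), and without the pre3 untransfected (0.017) or pre3 Tet1 siRNA library (0.0491). The within-line ratio was 2.67 in pre2-2 (1.55 to 4.73) and 2.77 in pre3 (0.665 to 16.2). Igf2 (0.39, adjusted p = 0.25) and Igf2r (0.30, adjusted p = 0.538) were not called, and were called without the pre3 untransfected library (0.57 and 0.49, adjusted p = 0.000116 and 0.0199).

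Tet1 siRNA cells differed from untransfected cells in both the transfection and the target, and here 4 of the 9 genes were called higher and none lower, beside 6.55% of all genes called, 4.92% higher and 1.63% lower. Peg10 was 3.11 higher, or 8.63-fold (SE 0.20, edgeR adjusted p = 1.68e-10), and had the smallest p of all 11048 genes. Its ratio was 8.92 in pre2-2 (7.42 to 10.8) and 8.56 in pre3 (3.04 to 33.2), and no single library ended the call (2.43 to 3.36). Igf2 was 0.97 higher (SE 0.13, edgeR adjusted p = 4.5e-05), 2.24-fold in pre2-2 (2 to 2.5) and 1.65-fold in pre3 (1.37 to 2), and was also called without each library in turn (0.72 to 1.15). Dlk1 was 1.48 higher (SE 0.40, edgeR adjusted p = 0.0233).

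Igf2r was the single maternally expressed gene called, 0.60 higher in Tet1 siRNA than in untransfected cells (SE 0.14, edgeR adjusted p = 0.00847). It stood at 106, 148 and 189 CPM in untransfected, control siRNA and Tet1 siRNA cells of pre2-2 and at 109, 117 and 139 CPM in pre3. Both lines had the same order, with a ratio of Tet1 siRNA to untransfected cells of 1.78 in pre2-2 (1.52 to 2.08) and 1.28 in pre3 (1.06 to 1.54). The calls of Igf2r and Dlk1 ended with DESeq2 (adjusted p = 0.236 and 0.524), without the pre2-2 untransfected library (0.38 and 1.55, adjusted p = 0.202 and 0.427) and without the pre2-2 Tet1 siRNA library (0.45 and 1.58, adjusted p = 0.432 and 0.592). The 3 comparisons share libraries and are not independent of each other.

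**Figure D2:**
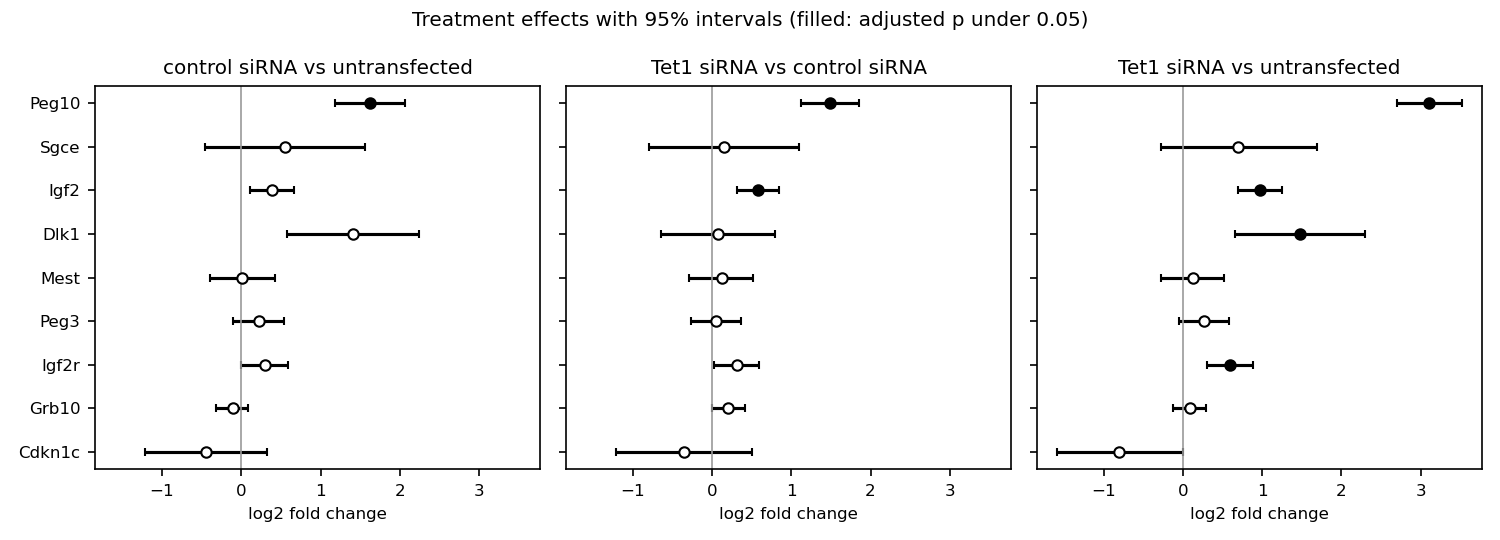
Log2 fold changes of the 9 genes tested in control siRNA against untransfected, Tet1 siRNA against control siRNA and Tet1 siRNA against untransfected cells, from the edgeR model with the cell line, with 95% intervals. Filled points passed an adjusted p under 0.05: Peg10 in all 3 panels, Igf2 in the panels with Tet1 siRNA, and Igf2r and Dlk1 in the last.

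Cdkn1c had the opposite order. It stood at 13.6, 11.1 and 8.9 CPM in untransfected, control siRNA and Tet1 siRNA cells of pre2-2 and at 10.3, 6.4 and 4.79 CPM in pre3. The Tet1 siRNA library was the lowest of each line, but the difference from untransfected cells, -0.80 (SE 0.39), did not pass the threshold (edgeR adjusted p = 0.257), and the libraries held 9 to 35 counts. The annotation places Gm44732 on the opposite strand over 30.7% of the exon bases of Cdkn1c, and whether the counting used strand is not given in the sources used here. Mest stood at 62.9, 59.7 and 65.1 CPM in pre2-2 and at 19, 21.9 and 23.4 CPM in pre3, with no difference between treatments past the threshold. Peg3 stood at 68.4, 82 and 69.8 CPM in pre2-2 and at 100, 114 and 138 CPM in pre3. In pre3 the Tet1 siRNA library was the highest for Peg3, while in pre2-2 it was close to the untransfected one.

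The largest difference of any member lay between the lines. Between pre3 and pre2-2, 5 of the 9 genes were called, 4 lower and 1 higher in pre3, and all 5 are paternally expressed. Over all genes 30.2% were called, 15.8% lower and 14.4% higher. The counts of 4 and 5 include Dlk1, whose direction was set by the filter (below), and are not read against these shares. Peg10 had a log2 difference of -4.34, 20.2-fold lower in pre3 (SE 0.18, edgeR adjusted p = 3.38e-15), the third smallest p of all genes. Dlk1 stood at -2.29, 4.89-fold lower (SE 0.34, adjusted p = 9.07e-06). Mest stood at -1.55, 2.93-fold lower (SE 0.17, adjusted p = 5.79e-08), and Igf2 at -1.29, 2.44-fold lower (SE 0.11, adjusted p = 1.43e-09). For each of these 4 genes the 3 libraries of pre2-2 lay above the 3 of pre3. Peg3 was higher in pre3 by 0.67, or 1.59-fold (SE 0.13, adjusted p = 0.000183), with no overlap either. Dlk1 passed the filter, 5.04 CPM in 2 libraries, through pre2-2 alone, so its line difference is given as a description, although it was also called with no filter. The calls of Peg10, Igf2, Mest and Peg3 held in all 13 alternative settings tried for this comparison, as did that of Dlk1, with the same limit.

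The maternally expressed genes tested were not called between the lines. Grb10 stood at 614, 551 and 680 CPM in untransfected, control siRNA and Tet1 siRNA cells of pre2-2 and at 660, 626 and 673 CPM in pre3, a difference of 0.09 (95% interval -0.08 to 0.26). The 2 lines overlapped in its level. Igf2r stood at -0.26 (adjusted p = 0.0942), and at -0.39 with a call when either untransfected library was left out, and Cdkn1c at -0.65 (adjusted p = 0.131). Each line gave 3 libraries of 1 line, so a difference holds for these lines and not for a class of cells.

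**Figure D3:**
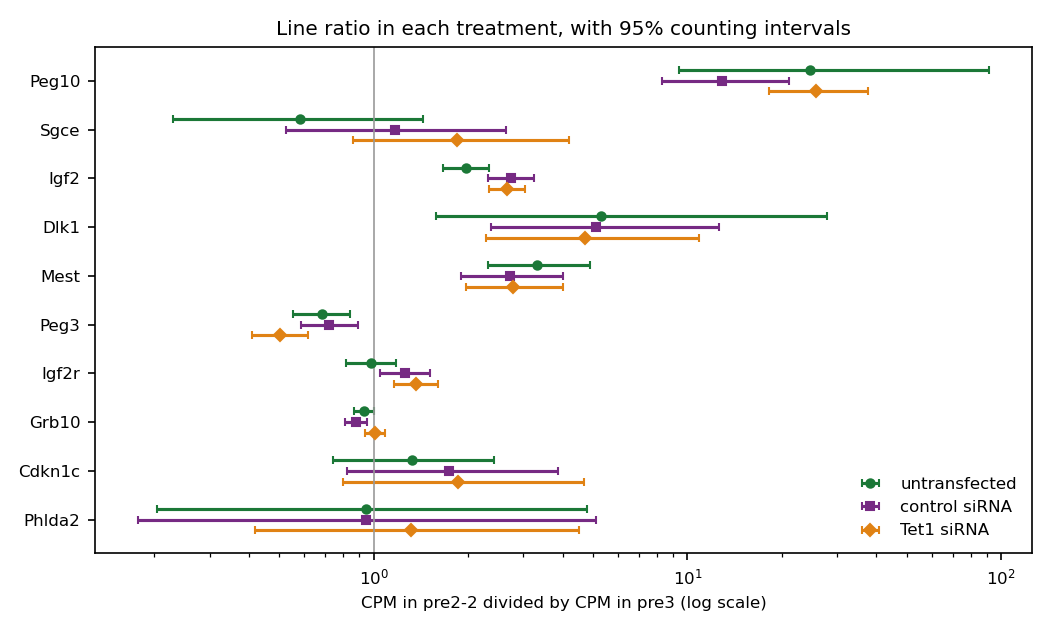
CPM in pre2-2 divided by CPM in pre3, on a log axis, for each of the 10 genes in untransfected, control siRNA and Tet1 siRNA cells, with exact 95% counting intervals. Peg10 lies at 24.6, 12.9 and 25.7, Peg3 lies below 1 in all 3 treatments, and the intervals of Sgce, Cdkn1c and Phlda2 include 1 in all 3.

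The ratio of pre2-2 to pre3 could be read in each treatment by itself. For Peg10 it was 24.6 in untransfected cells (counting interval 9.39 to 91.7), 12.9 with control siRNA (8.27 to 21.1) and 25.7 with Tet1 siRNA (18.2 to 37.5). For Dlk1 it was 5.3, 5.1 and 4.7, and for Mest 3.32, 2.73 and 2.78, all with intervals above 1. For Igf2 it was 1.97, 2.74 and 2.66. An interaction of line with Tet1 siRNA, with the remaining 2 libraries of each line taken jointly as controls, was called for 0 of the 9 genes by edgeR, beside 0.00% of all genes, and by DESeq2 and limma-voom as well. At an unadjusted p under 0.05 edgeR had 0 of the 9 and 270 of all genes. For Peg10 it was -0.82 (95% interval -3.04 to 1.4). An interaction of line with transfection was likewise called for 0 of the 9 by each of the 3 tools, beside 0.00905% of all genes by edgeR, where 603 genes and 0 of the 9 had an unadjusted p under 0.05. Both tests assume that the pooled libraries vary like replicates, and their intervals are wide. For Peg10 the pooled libraries did not: control siRNA differed from untransfected by 1.62, and Tet1 siRNA from control siRNA by 1.49. These differences enter the error of the fits, so for Peg10 the lack of a call cannot show that the lines responded alike.

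Peg10 and Sgce lie next to each other on chromosome 6, read in opposite directions, and are both paternally expressed. Sgce stood at 3.89, 8.1 and 10.8 CPM in untransfected, control siRNA and Tet1 siRNA cells of pre2-2 and at 6.67, 6.93 and 5.85 CPM in pre3, from 10 to 23 counts. The untransfected library was the lowest in pre2-2 but not in pre3, the lines overlapped, and no comparison was called. For line, the difference was -0.17 (SE 0.39, 95% interval -0.98 to 0.63), beside -4.34 for Peg10. The ratio of Peg10 to Sgce in TPM was 3.48, 4.52 and 10.6 in pre2-2 and 0.0781, 0.41 and 0.762 in pre3. Peg10 was therefore the more abundant of the pair in each pre2-2 library and the less abundant in each pre3 library.

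Of 13 genes around Peg10 and Sgce in the files, 7 were tested, and Peg10 was the only one called in any treatment comparison. Casd1, a sialic acid acetyltransferase, stood at 33.4, 24.8 and 43.1 CPM in pre2-2 and 22.1, 19.7 and 26.6 CPM in pre3, with a line difference of -0.56 (adjusted p = 0.0218) that was not called with DESeq2 (adjusted p = 0.269) or when either Tet1 siRNA library was left out. Tfpi2, a protease inhibitor, had 0, 0.533 and 0.532 CPM in pre3 against 3.11, 6.07 and 8.43 CPM in pre2-2. It passed the filter through pre2-2 alone, so these levels are given with no test. The other neighbours at 10 CPM or more were Ppp1r9a (18.1 to 32.3 CPM), Pon2 (16.7 to 32.8 CPM) and Bet1 (12.2 to 20.5 CPM), none of them called.

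Igf2 on chromosome 7 and Igf2r on chromosome 17 are unlinked, and encode a ligand and a receptor that binds it. In TPM, Igf2 exceeded Igf2r by 4.25, 4.62 and 5.33-fold in pre2-2 and by 2.13, 2.11 and 2.74-fold in pre3. The ratio was higher in each pre2-2 library than in any pre3 library, and highest with Tet1 siRNA in each line. Gm49394 shares 61.2% of the 50-base words of Igf2 in GENCODE M21 and is not a row of the deposited tables, so reads from those stretches and from Igf2 cannot be told apart. With control siRNA against no transfection, 1.38% of all genes were called higher. Of 13 tested genes around Igf2 and Cdkn1c, Osbpl5 and Tnfrsf23 were called higher in this comparison (1.26 and 1.20). Both calls ended with DESeq2 (0.93 and 1.12, adjusted p = 1 and 0.635) and without the pre2-2 untransfected or control siRNA library, that of Osbpl5 also with a minimum count of 30 (adjusted p = 0.0627), and the differences ranged from 0.11 to 1.96 and from 0.76 to 1.38 over libraries left out. Of the 13, Igf2 was the only one called between Tet1 siRNA and control siRNA, beside 1.58% of all genes. Between the lines Osbpl5 (-1.36), Tnfrsf23 (-1.59) and Lsp1 (-1.11) were called lower in pre3 with Igf2, and Mrpl23 (0.62) higher. Over all genes 15.8% were called lower and 14.4% higher. Of these 4 neighbours, Tnfrsf23 was called with DESeq2 as well, and the calls of Lsp1 and Mrpl23 ended when either control siRNA or either untransfected library, respectively, was left out. Neighbours at 10 CPM or more with no call were Cd81 (384 to 445 CPM), Nap1l4 (180 to 201 CPM), Cars (92.7 to 123 CPM), Tssc4 (33.6 to 50.5 CPM), Tspan32 (7.69 to 17.7 CPM) and Tnfrsf22 (6.15 to 11.7 CPM). Around Igf2r, 7 genes were tested, and no gene but Igf2r was called by treatment. Between the lines Acat2 was called at 0.42 and Wtap at -0.37, beside 30.2% of all genes. Neither was called by DESeq2 (adjusted p = 0.16 and 0.0914), nor was Wtap without the pre3 control siRNA library. Tcp1 (489 to 596 CPM), Sod2 (233 to 282 CPM), Mrpl18 (54.3 to 83.1 CPM) and Map3k4 (33.7 to 55.9 CPM) were not called.

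**Figure D4:**
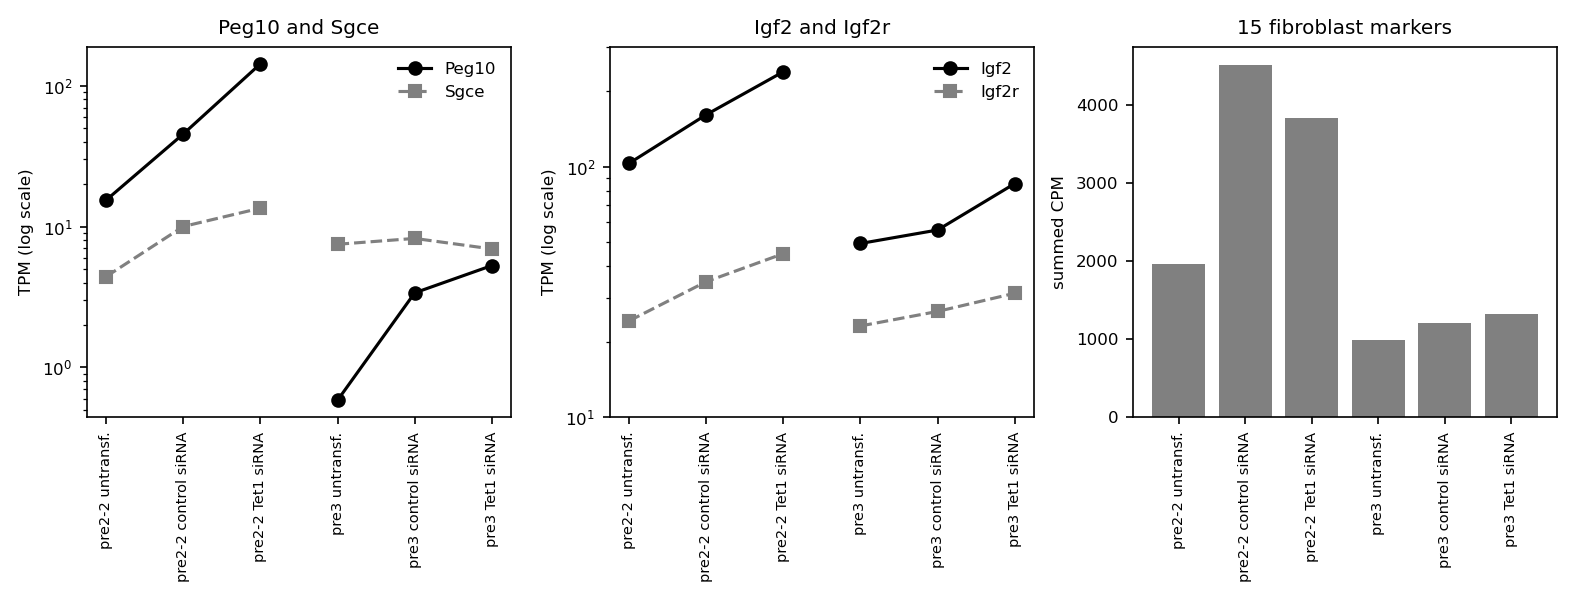
TPM on log axes of Peg10 with Sgce (left) and of Igf2 with Igf2r (middle), and the summed CPM of 15 fibroblast markers (right), with 1 library per point or bar. Peg10 crosses from above Sgce in pre2-2 to below it in pre3, Igf2 stays above Igf2r in all 6 libraries, and the marker sum runs from 987 to 4520 CPM.

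Mest was the single called gene of the 3 tested around it on chromosome 6. The call was between the lines, where 30.2% of all genes were called. Its overlapping neighbour Copg2 lies on the opposite strand and shares 21.2% of the 50-base words of Mest. Copg2 stood at 54.1 to 64.9 CPM in pre2-2 and 68.2 to 71.3 CPM in pre3 and its line difference was 0.25 with no call (adjusted p = 0.163), against -1.55 for Mest. The 250-base windows of Peg3 and Usp29 overlap by 163 bases on opposite strands. Usp29 held under 2 counts in each library, while Peg3 held 149 to 260. Tsga14 (8.94 to 12.3 CPM), also near Mest, was not called. Around Grb10, 1 of 4 tested genes was called, Cobl, at -0.44 between the lines, beside 30.2% of all genes. DESeq2 did not call it (adjusted p = 0.0771). Ddc (80.5 to 123 CPM) and Fignl1 (49.6 to 59.1 CPM) were not called. Around Dlk1, Ppp2r5c was 0.39 higher in pre3, with no call by DESeq2 (adjusted p = 0.0747) or when either control siRNA library was left out, and no gene but Dlk1 was called by treatment. Wars (106 to 129 CPM), Yy1 (79.2 to 119 CPM) and Wdr25 (6.38 to 11.7 CPM) were not called.

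The genes of the insulin-like growth factor pathway were taken from a list of 21, of which 17 were tested. Between Tet1 siRNA and control siRNA, 1 was called higher and 0 lower: Htra1, a secreted protease that cleaves IGF-binding proteins (0.50, SE 0.13, edgeR adjusted p = 0.0423), beside 1.15% of all genes called higher. Between control siRNA and untransfected cells, 2 were called higher and 0 lower, beside 1.38% higher over all genes. Pappa, a protease that frees IGF from binding protein 4, was 1.83 higher (12.4 to 50.6 CPM in pre2-2 and 3.08 to 5.86 CPM in pre3), and the binding protein gene Igfbp7 was 1.29 higher (46.2 to 153 CPM in pre2-2 and 16.9 to 16.5 CPM in pre3). With Tet1 siRNA against untransfected cells, 5 were called higher, Htra1, Igfbp3, Igfbp5, Igfbp7 and Pappa, and 0 lower, beside 4.92% higher over all genes. Between the lines 3 were higher in pre3, Igfbp2 by 1.74, Grb7 by 0.87 and Insr by 0.51, and 7 were lower, among them Pappa at -2.68, Igfbp7 at -2.41, Igfbp4 at -1.95, Htra1 at -0.76 and Igfbp3 at -0.64, beside 14.4% of all genes higher and 15.8% lower. The receptor gene Igf1r was lower at -0.45, as was Igf2bp1, whose product binds Igf2 messenger RNA, at -0.52. With single libraries left out, Htra1 ranged from 0.25 to 0.71 between Tet1 siRNA and control siRNA, and its call ended when either transfected library of pre2-2 or the pre3 control siRNA library was left out. The same call was lost under DESeq2 (0.49, adjusted p = 0.662), under a minimum count of 30 (adjusted p = 0.0647) and with the untransfected libraries added to the controls (adjusted p = 0.0603). Between control siRNA and untransfected cells Pappa ranged from 1.15 to 1.97 and Igfbp7 from 0.33 to 1.64, and both calls ended without the pre2-2 untransfected or the pre2-2 control siRNA library and with DESeq2 (1.69 and 0.91, adjusted p = 0.243 and 1). With Tet1 siRNA against untransfected cells, the call of Igfbp5 ended without the pre3 Tet1 siRNA library, that of Igfbp7 without the pre2-2 untransfected library and those of the other 3 without that library or the pre2-2 Tet1 siRNA library. DESeq2 called 0 of these 5. Of the 10 line calls DESeq2 kept 7, losing Grb7, Insr and Igf1r. Those of Grb7 and Insr also ended when either control siRNA library was left out, that of Igf1r when any 1 of the 4 transfected libraries was and that of Igfbp3 without the pre3 control siRNA library.

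A wider list held 60 other imprinted genes in the files, of which 39 were tested. Between Tet1 siRNA and control siRNA 1 was higher and 1 lower, beside 1.15% and 0.434% of all genes. Qpct, a glutaminyl cyclase, stood at 8.16, 9.11 and 24.4 CPM in untransfected, control siRNA and Tet1 siRNA cells of pre2-2 and at 20, 10.1 and 33.5 CPM in pre3 (a log2 difference of 1.58, SE 0.31, edgeR adjusted p = 0.00438). Atp10a, a phospholipid transporter, stood at 23.3, 29.4 and 8.9 CPM in pre2-2 and at 20, 27.7 and 11.2 CPM in pre3 (a log2 difference of -1.51, SE 0.28, edgeR adjusted p = 0.00279). The Tet1 siRNA library was the highest of its line for Qpct and the lowest for Atp10a. The Qpct call ended without the pre2-2 Tet1 siRNA or the pre3 control siRNA library and that of Atp10a without the pre2-2 Tet1 siRNA library. Both also ended with DESeq2 (1.57 and -1.51, adjusted p = 0.332 and 0.243). Control siRNA against untransfected cells gave Osbpl5 and Tnfrsf23, described above. Against untransfected cells, Tet1 siRNA gave 5 higher (Blcap, Gab1, Osbpl5, Qpct and Tnfrsf23) and 1 lower (Atp10a), beside 4.92% and 1.63% of all genes. All 6 calls were lost with DESeq2 and when the pre2-2 untransfected or the pre2-2 Tet1 siRNA library was left out.

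Between the lines, 11 of the 39 were lower in pre3 and 2 higher, beside 15.8% of all genes lower and 14.4% higher. Both directions came to 30.2% over all genes. Of the 11, Plagl1, Slc38a4, Nnat and Tfpi2 passed the filter through pre2-2 alone, so their line differences are descriptions. The count of 11 includes them and is therefore not read against the share over all genes. The transcription factor gene Plagl1, a known regulator of imprinted genes, had a fitted difference of -2.38. It stood at 10.1, 24.8 and 17.8 CPM in pre2-2 and at 1.03, 4.26 and 4.79 CPM in pre3. The amino acid transporter gene Slc38a4 stood at -2.72, and the small proteolipid gene Nnat at -2.14. The others called lower were Tnfrsf23, Osbpl5, Bcl2l1 (-0.93), the receptor kinase gene Axl (-0.92), Blcap (-0.71), H13 (-0.67) and Cobl, and those called higher were Zdbf2 (1.03) and Qpct (0.64). DESeq2 called 8 of the 13, without Axl, Blcap, Cobl, Osbpl5 and Qpct. The call of Blcap also ended when either Tet1 siRNA library was left out, and that of Qpct without any 1 of the untransfected and Tet1 siRNA libraries. Of 19 tested genes that set or guard DNA methylation, Tet1 was the only one called between Tet1 siRNA and control siRNA. Against untransfected cells Tet1 (-0.54) and Uhrf1 (-0.37), which guides maintenance methylation, were called lower, with no call by DESeq2 (adjusted p = 0.184 and 0.437). The Uhrf1 call ended without any 1 library but the pre3 untransfected, and that of Tet1 without the pre2-2 untransfected or Tet1 siRNA library. Between the lines Zfp57 stood at -0.55 (188, 220 and 222 CPM in pre2-2 against 144, 144 and 140 CPM in pre3), Dnmt3b at -0.72 and Kdm1b at -0.84, while Dnmt1, Ehmt2 and Tet2 were 0.30 to 0.45 higher, 6 of 19 beside 30.2% of all genes. DESeq2 called Zfp57 and Kdm1b of these 6. The calls of Dnmt1 and Ehmt2 ended when any 1 of the 4 transfected libraries was left out and that of Tet2 when either control siRNA library was. Of 17 tested partners of the other members, 1 was called with Tet1 siRNA against control siRNA, beside 1.58% of all genes. This was Ccnd1, the cyclin that drives entry into S phase, at -0.67. Its call ended when either transfected library of pre2-2 was left out (-0.90 to -0.43 over libraries left out). It was not called with the untransfected libraries added to the controls (-0.54, adjusted p = 0.0912). Against untransfected cells Notch1 (0.68), a receptor, was called higher and Ccnd1 (-0.40) and Cdk4 (-0.37) lower, 3 of 17 beside 6.55% of all genes, with 0 of the 3 called by DESeq2 or without the pre2-2 Tet1 siRNA library. Between the lines 15.8% of all genes were lower in pre3 and 14.4% higher. Of the partners, Phlda1 (-2.26), Ccnd2 (-0.88) and Ccnd1 (-0.82) were lower in pre3, all with DESeq2 as well. Bax, Cdkn1b, Dag1 and Phlda3 were 0.29 to 0.41 higher, with no call by DESeq2, and of these Bax alone was called without each library in turn.

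Peg10, Igf2 and Dlk1 took the same order over the 6 libraries, lowest in untransfected pre3 and highest in Tet1 siRNA pre2-2. Likeness was measured as the Pearson correlation of log2 CPM over the 6 libraries, ranked over 9501 genes with a mean of at least 10 CPM, and is a description, since the libraries fall into 2 lines. The genes most like Peg10 were Vcan (0.997), Pcdh19, Acvr1, Ngly1 and Cmtm3 (0.992). Dlk1 ranked 57 (0.98) and Igf2 ranked 78 (0.975), while Mest (0.90), Igf2r (0.789), Grb10 (-0.223) and Peg3 (-0.66) ranked lower. Vcan, a matrix proteoglycan, stood at 47.8, 73.4 and 103 CPM in pre2-2 and 13.8, 24 and 31.4 CPM in pre3. The genes most like Igf2 were Lbh (0.998), Capg, Mprip, Tmsb4x and Arntl (0.995). In all, 185 of the 9501 genes had exactly this order of libraries, so the shared order is not particular to imprinted genes.

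Fibroblast markers were mostly lower in pre3 and mostly higher with transfection. Between Tet1 siRNA and control siRNA their median log2 difference was 0.01. Their summed level was 1960, 4520 and 3840 CPM in untransfected, control siRNA and Tet1 siRNA cells of pre2-2 and 987, 1200 and 1320 CPM in pre3. Of 13 tested, 12 were lower in pre3, beside 15.8% of all genes: Col1a1, Col1a2, Col3a1, Col5a1, Pdgfra, Pdgfrb, Postn, Prrx1, S100a4, Thy1, Twist1 and Twist2. With control siRNA against no transfection 5 were higher (Col1a1, Col1a2, Col5a1, Postn and Thy1), beside 1.38% of all genes, and DESeq2 called 1 of them. With Tet1 siRNA against no transfection 8 were higher (Col1a1, Col1a2, Col3a1, Col5a1, Pdgfra, Postn, Prrx1 and Twist1), beside 4.92%, and DESeq2 called 3. Between Tet1 siRNA and control siRNA 1 was higher, Col3a1 (0.54, edgeR adjusted p = 0.044), beside 1.15%, and DESeq2 did not call it. None was called in the opposite direction in these 4 comparisons. With each library left out in turn, 11, 0, 3 and 0 of these calls held. Col1a1 was at 752, 2050 and 1570 CPM in pre2-2 and 367, 480 and 463 CPM in pre3, and Lum had at most 2.34 CPM. Between control siRNA and Tet1 siRNA of pre2-2 the lower sum came mostly from Col1a1 and Col1a2 (1090 to 887 CPM). Thy1 (106 to 63.2 CPM), Pdgfrb (64.8 to 44.5 CPM) and Twist2 (18.2 to 14.1 CPM) were also lower, as were S100a4, Postn, Col5a1 and Fap. Col3a1 (225 to 288 CPM), Pdgfra (23.8 to 36.1 CPM), Twist1 (13.7 to 21.5 CPM) and Prrx1 (105 to 113 CPM) were higher, as were Dcn, Lum and Peg10. Interferon response genes, 10 in all, summed to 157, 872 and 257 CPM in pre2-2 and to 20.5, 168 and 81.9 CPM in pre3, highest with control siRNA in each line. The part of fibroblast content and of the interferon response in the differences of Peg10, Igf2 and Dlk1 was not tested.

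Some pluripotency markers also differed where Peg10 and Igf2 did, and between the lines most of those called went the opposite way to Peg10. Dppa5a stood at 11.7, 11.6 and 37 CPM in untransfected, control siRNA and Tet1 siRNA cells of pre2-2 and at 41.5, 40 and 123 CPM in pre3. Tdgf1, a co-receptor for NODAL, stood at 520, 461 and 828 CPM in pre2-2 and at 861, 620 and 935 CPM in pre3. Of 8 tested, these were the 2 called between Tet1 siRNA and control siRNA, both higher (1.63 and 0.72, edgeR adjusted p = 1.92e-05 and 0.000542), beside 1.15% of all genes higher, and DESeq2 called both. The Dppa5a call held with each library left out (1.62 to 1.67), and that of Tdgf1 ended without the pre2-2 Tet1 siRNA library (0.52 to 0.91 over libraries left out) and with the untransfected libraries added to the controls. Against untransfected cells Dppa5a (1.60) and Tdgf1 (0.39) were higher and Nr0b1 (-0.93) lower, beside 4.92% and 1.63% of all genes. Of Dppa5a, Tdgf1 and Nr0b1, the first alone was called with DESeq2 or with each library left out. Between the lines Pou5f1, which encodes OCT4, stood at 1040 to 1210 CPM in pre2-2 and 5790 to 6620 CPM in pre3. With Dppa5a, Tdgf1 and Tdh, 4 of 8 were higher in pre3, beside 14.4% of all genes. Fgf4 (-0.95) and Utf1 (-1.33) were lower, like Peg10, 2 of 8 beside 15.8%. Utf1 was not called by DESeq2 or without any 1 of the 4 transfected libraries. The part of these differences in those of the imprinted genes was not tested.

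Cell types in which these genes are known to be abundant left little RNA. Of 12 trophoblast markers, none reached 10 CPM and the sum was 2.05 to 12.2 CPM, with Elf5, Hand1, Tpbpa and Prl3d1 at 0 in every library. Of 13 endoderm and liver markers the sum was 8.94 to 27.1 CPM, with Foxa2, Afp, Alb, Ttr and Hnf4a at 0 in every library. Of those tested, Eomes was called lower in pre3 and Apoa2 and Gata4 higher, none of them by DESeq2. Eomes passed the filter through pre2-2 alone and Gata4 through pre3 alone, so their line differences are descriptions. The calls of Eomes and Apoa2 ended without any 1 library, and that of Gata4 without either Tet1 siRNA library. The 8 muscle markers summed to 8.16, 15.7 and 47.8 CPM in untransfected, control siRNA and Tet1 siRNA cells of pre2-2 and to 16.9, 14.4 and 11.7 CPM in pre3, with Myod1, Myog and Myf5 at 0 in every library. Most of the higher sum with Tet1 siRNA in pre2-2 came from Acta1, the skeletal muscle actin, at 3.89, 7.59 and 38.9 CPM there and 0, 2.67 and 2.66 CPM in pre3. Acta1 was called higher with Tet1 siRNA than with control siRNA (1.9, edgeR adjusted p = 0.0316) and than without transfection (3.32), and lower in pre3 (-3.14), in the directions of Peg10. It passed the filter through pre2-2 alone, each of the 3 calls ended without the pre2-2 Tet1 siRNA library, and the first also ended with DESeq2 (1.42, adjusted p = 1) and without the pre2-2 control siRNA library. Its part in the result for Peg10 was not tested. Which cells the Peg10 RNA came from was not tested.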

How the data were processed

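The authors deposited an expected count and a fraction per gene symbol and library, made with RSEM 1.1.21 on mm9, per the submitters' processing notes. The deposited expected count is an estimate of reads per gene, not normalized, and the deposited fraction is the share of transcripts from a gene, scaled here to TPM. Read length, filters and strand settings are not given in the sources used here. Expected counts were rounded and tested in R 4.3.3 with edgeR 4.0.16 (TMM, filterByExpr at 10 counts, leaving 11048 genes, quasi-likelihood F test, two-sided, Benjamini-Hochberg over all genes kept). Unless another tool is named, each adjusted p is from edgeR. The model held cell line and treatment over all 6 libraries and was tested on simulated data. DESeq2 1.42.0, limma 3.58.1, other scalings and filters, and leaving out each library were alternatives. Libraries pair by cell line: deviations from treatment means correlated across genes at 0.667 to 0.772 between treatments of a line. The smallest p of an exact permutation test would be 0.333 for 2 libraries against 2 and 0.1 for 3 against 3. All members are named, and of the listed genes, apart from the interferon response, those called, neighbours at 10 CPM or more and the 5 most like Peg10 or Igf2. The members and lists were chosen with earlier results of these data known. Sequences are from RefSeq and GENCODE on GRCm38, a later build than mm9. A series-wide TPM table that repeats the fractions was not used here.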

Additional observations from a re-analysis of the deposited data

How the results depend on the processing

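Each treatment rests on 2 lines with 1 library each, and low counts limit Dlk1, Sgce, Cdkn1c and Phlda2. Without the replicate block (the line that pairs the libraries), edgeR called 0 members for Tet1 siRNA against control siRNA, 0 for control siRNA against untransfected and 0 for Tet1 siRNA against untransfected cells, where 0, 0 and 1 had an unadjusted p under 0.05. The counts over all genes were then 0 in each, with 178, 84 and 353 at an unadjusted p under 0.05. DESeq2 called 1, 1 and 2 members, and limma-voom and no filter on low counts each gave 2 for control siRNA against untransfected. Leaving out 1 library, the members called ranged from 0 to 2, 0 to 4 and 2 to 4 in these comparisons and from 5 to 6 between the lines. The line calls of Peg10, Igf2, Mest and Peg3 held in all 13 alternatives. That of Dlk1 did too, but Dlk1 passed the filter through pre2-2 alone and its line difference is a description. The calls of Peg10 and Igf2 between Tet1 siRNA and untransfected cells held in all alternatives that kept the line.

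Over all genes, 175 were called between Tet1 siRNA and control siRNA, 24 with DESeq2, 292 with no filter, 106 with a minimum count of 30, 613 in a fit of the 4 libraries compared, 114 with control siRNA and untransfected libraries pooled as controls, and 34 to 632 with a library left out. For control siRNA against untransfected cells, 164 became 32 with DESeq2, 259 with no filter and 27 to 733 with a library left out. For Tet1 siRNA against untransfected cells, 724 became 87 with DESeq2 and 172 to 1900 with a library left out. Between the lines, 3335 became 1429 with DESeq2 and 2152 to 3631 with a library left out.

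Of the other genes named from the lists, DESeq2 called 5 of 17 for Tet1 siRNA against control siRNA, 7 of 18 for control siRNA against untransfected cells, 9 of 34 for Tet1 siRNA against untransfected cells and 45 of 72 between the lines, and 2, 4, 6 and 46 of these calls held with each library left out. Between Tet1 siRNA and control siRNA, Acta1 ranged from -0.12 to 2.34 and Ifit1 from -2.77 to 0.51 with a library left out.

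The other sign changes were in values that had not passed the threshold, and the cause of none was tested. For Mest, control siRNA against untransfected cells gave 0 with limma-voom, 0 with no filter, -0.02 without the replicate block and -0.08 to 0.20 with a library left out. With a library left out, Sgce ranged from -0.47 to 0.62 and Peg3 from -0.22 to 0.27 for Tet1 siRNA against control siRNA, and Sgce from -0.13 to 1.18 for control siRNA against untransfected and from -0.55 to 0.23 between the lines. In the interaction of line with Tet1 siRNA, Peg10 ranged from -1.73 to 0.87, Igf2 from -0.48 to 0.11, Dlk1 from -0.72 to 1.02 and Cdkn1c from -0.57 to 0.08, and Dlk1 was -0.01 with limma-voom. In that of line with transfection, Peg10 ranged from -0.37 to 1.27 and Grb10 from -0.16 to 0.15, Dlk1 was -0.01 with limma-voom and Grb10 0.01 with no filter. Grb10 had a Spearman likeness of 0.03 to both Peg10 and Igf2.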
